A study of Homo sapiens with 6 samples.

Results

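The genes described here are those of the microtubule and its motors: tubulins, kinesins and dyneins, together with stathmins, 4 microtubule-associated proteins and the 3 end-binding proteins. Members were taken by gene symbol from an RNA-seq table of MDA-MB-231, a human triple-negative breast cancer cell line. Symbols starting with TUBA, TUBB, TUBG, TUBD, TUBE, DYNC, DYNL or DNAH, or with KIF followed by a digit or C, were included, as were STMN1 to STMN4, MAP1A, MAP1B, MAP2, MAP4, MAPRE1, MAPRE2 and MAPRE3. This rule found 108 genes in 117 rows, of 22421 genes in 24108 rows of the table. The rule uses symbols and not values.

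Cells of both groups received a lentivirus for 48 h and were kept in 0.5 µg/ml puromycin for 24 h. In the 3 shCtr samples the virus carried a short hairpin RNA against firefly luciferase, and in the 3 shZNF148 samples a hairpin against ZNF148, a zinc finger transcription factor that binds GC-rich DNA. Each group is 1 hairpin in 1 cell line, so an effect of the hairpin beyond its target cannot be told apart from loss of ZNF148. The labels number the samples as repeats without saying that they were separate cultures, so p-values measure the spread between these samples, which may be technical. The table gives FPKM, fragment counts scaled to the length of the transcript and to the mapped fragments of the sample. FPKM are per length, so levels of different genes can be compared, but each is a share of the RNA of its sample. In bulk samples, fewer cells of a type and less RNA per cell cannot be told apart. The ZNF148 hairpin, listed in the study's supplementary oligonucleotide table, was aimed at 21 bases, shown here because they define the treated group.
shZNF148: cccttggtgaatgtaaatgat

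Microtubules are hollow polymers of alpha- and beta-tubulin dimers, and gamma-tubulin in a ring complex starts them. Most kinesins walk toward the growing plus end, while cytoplasmic dynein carries cargo toward the minus end. In dividing cells the same parts build the mitotic spindle, and in moving cells they carry membrane and adhesion proteins and hold the polarity of the cell. Drugs that act on tubulin, such as taxanes, are used against triple-negative breast cancer.

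ZNF148 itself was 3.72, 4.36 and 4.30 FPKM in shCtr and 0.914, 0.282 and 0.834 FPKM in shZNF148, which left 16.4% of the control mean (log2 fold change -1.63, SE 0.18, adjusted p = 0.00990). VIM, a mesenchymal filament gene, was at 1507 to 1842 FPKM, and CD44, a surface glycoprotein, at 402 to 606 FPKM, where it fell in shZNF148 (-0.46, adjusted p = 0.0185). ESR1 was listed at 0 in all 6 samples and PGR was at most 0.0830 FPKM, so the hormone receptor genes of this triple-negative line were near absent from the table. ERBB2 was 20.1 to 24.8 FPKM in 4 samples but 126 and 125 FPKM in the samples numbered 2 of each group, and its part in the results was not tested. The ERBB2 row also names a microRNA gene, MIR4728, and cannot be read as ERBB2 alone. The leukocyte gene PTPRC and the endothelial gene PECAM1 did not exceed 0.115 and 0.131 FPKM. Depth in reads is not given by the table. Its low values put the relative depth of the samples between 0.807 and 1.13 of that of shCtr replicate 1, with shZNF148 replicate 3 the shallowest.

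A row was tested when its mean was at least 1 FPKM, which 68 members met, each with 1 row. A member is called higher or lower at an adjusted p under 0.05 in limma on log2(FPKM + 1), a scale that understates changes of low genes. Of the 68, 14 fell and 5 rose on ZNF148 depletion, against a background of 8.13% of all 11777 tested rows that fell and 5.46% that rose (13.6% in either direction). As shares of the tested members, 20.6% fell and 7.35% rose. The 14 include DNAH5, which met the filter only through the shCtr samples and is no support. DNAH5 is also among the members counted below as lower without overlap and as below 0. On this scale, a change of more than 1.5-fold was met by 3 of the genes that fell (TUBB6, DYNC1LI1 and MAPRE3) and 2 that rose (TUBD1 and MAPRE2), beside 3.66% and 1.83% of all rows (5.49% in either direction). The 3 samples of one group lay wholly below or above those of the other in 39 of the 68 members (25 lower and 14 higher), or 57.4%, against 41.0% of all rows (21.0% lower and 20.0% higher). The median log2 fold change was -0.09 over the members and 0.01 over all rows. Below 0 were 43 of the 68 members (63.2%) and 49.1% of all rows.

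The count of members called depended on single libraries. Without shCtr replicate 1 or without shCtr replicate 3, limma called 0 members. At an unadjusted p under 0.05 there were then 18 lower and 7 higher without replicate 1, and 19 lower and 7 higher without replicate 3. All tested rows moved in the same way, since without shCtr replicate 1 only 26 of them were lower and 3 higher, against 957 and 643 with every sample, and without shCtr replicate 3 these were 19 and 3. Leaving out shCtr replicate 2 left 4 members lower and 0 higher, and leaving out shZNF148 replicate 1 left 6 and 0. Without shZNF148 replicate 2 the counts were 15 and 4, and without shZNF148 replicate 3 they were 9 and 3. The 19 called members kept their sign in all of these fits, and 0 of the 19 were called in every one.

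**Figure D1:**
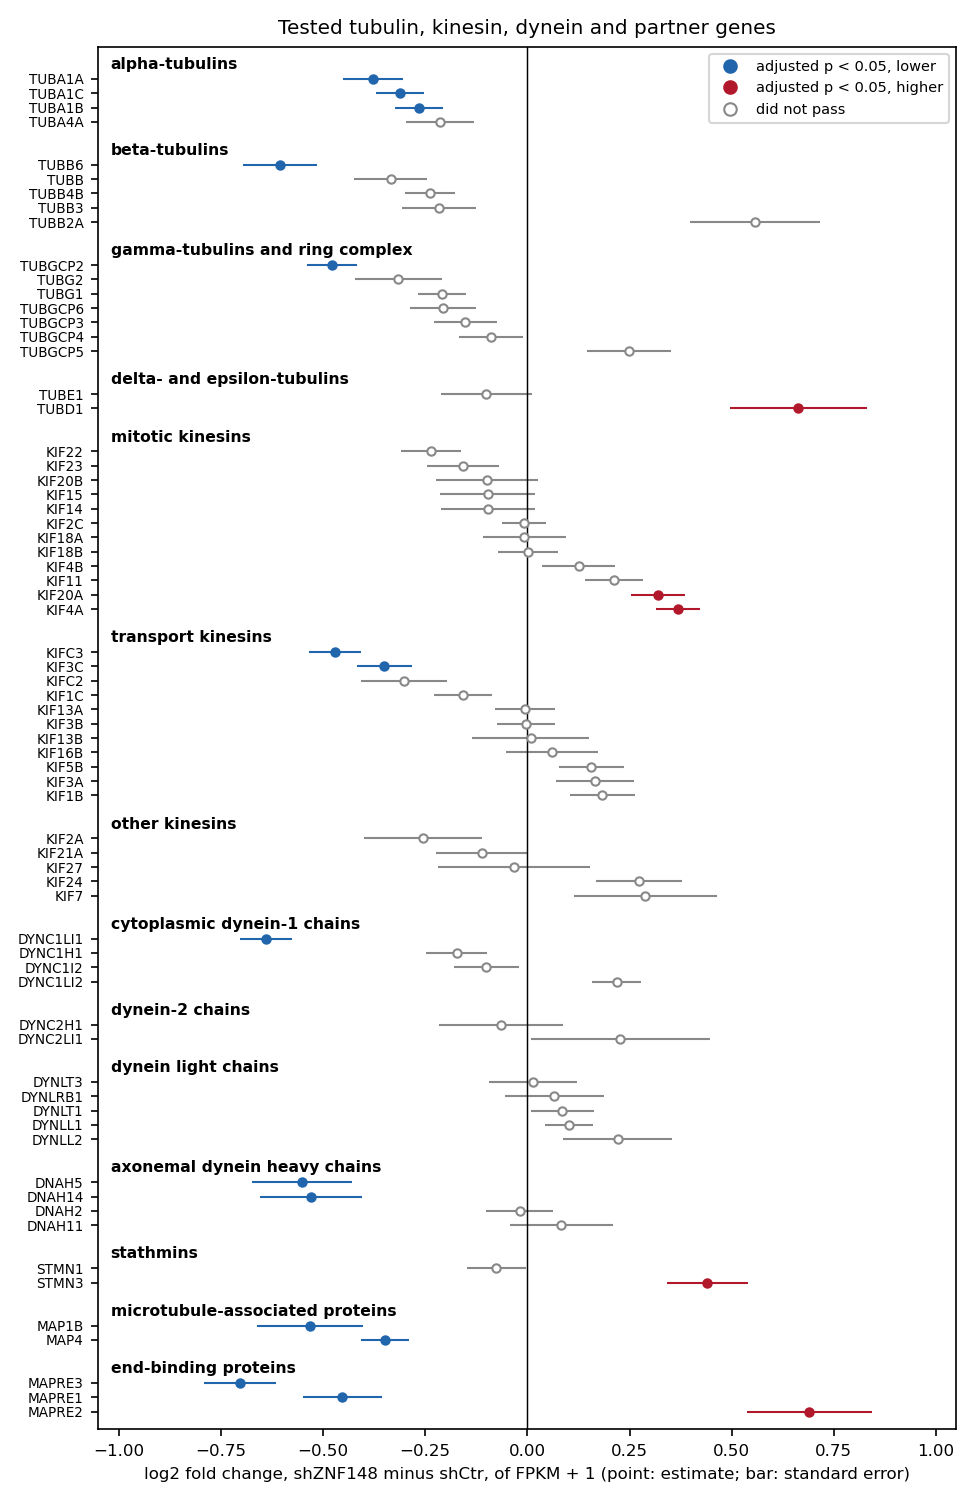
Log2 fold change (shZNF148 minus shCtr, on FPKM + 1) of the 68 tested members, grouped by role, with bars of 1 standard error. Filled points passed at adjusted p under 0.05 (14 lower in blue, 5 higher in red) and open points did not. The alpha-tubulins and most beta-tubulins lie left of 0, while the dynein light chains lie to the right.

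Alpha-tubulin, the subunit of the dimer that faces the minus end, was lower in the depleted cells. TUBA1B, the main alpha-tubulin isotype here, was 342, 348 and 343 FPKM in shCtr and 293, 295 and 272 FPKM in shZNF148. The groups did not overlap, and TUBA1B fell to 83.2% of the control mean (log2 fold change -0.27, SE 0.06, adjusted p = 0.0337). TUBA1C was 266, 262 and 263 FPKM in shCtr and 219, 217 and 202 FPKM in shZNF148. It fell as well, to 80.5% (-0.31, SE 0.06, adjusted p = 0.0239). TUBA1A, an isotype best known from neurons, was 44.9, 42.9 and 43.6 FPKM in shCtr and 32.6, 36.5 and 31.4 FPKM in shZNF148, also without overlap, and fell to 76.5% (-0.38, SE 0.07, adjusted p = 0.0264). TUBA4A did not pass (-0.21, SE 0.08, adjusted p = 0.125). Its samples, 56.5, 49.3 and 47.0 FPKM against 42.1, 43.5 and 45.3 FPKM, were all lower in shZNF148. Thus 3 of the 4 tested alpha-tubulins fell and none rose, beside 8.13% and 5.46% of all rows, with a group median of -0.29. The 3 that fell share 57.0% to 68.3% of their 50-base coding stretches with other members, so they are not separate observations.

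Beta-tubulin carries the exchangeable GTP of the dimer and the binding site of taxanes, and TUBB6 is the class V isotype. TUBB6 was 224, 243 and 214 FPKM in shCtr and 162, 133 and 152 FPKM in shZNF148. The highest depleted sample lay well under the lowest control. TUBB6 fell to 65.7% of the control mean (-0.60, SE 0.09, adjusted p = 0.0169), the largest fall among the 9 tested alpha- and beta-tubulins. TUBB4B, the tubulin with the highest FPKM listed here, was 539, 578 and 543 FPKM in shCtr and 490, 460 and 457 FPKM in shZNF148. Its groups did not overlap but it narrowly missed the threshold (-0.24, SE 0.06, adjusted p = 0.0501). TUBB was likewise separate without passing, at 12.9, 12.2 and 13.2 FPKM against 10.1, 10.9 and 8.85 FPKM (-0.33, SE 0.09, adjusted p = 0.0549). TUBB3, the neuronal class III isotype that has been studied in taxane resistance, overlapped between the groups (49.4 ± 3.12 against 42.5 ± 4.34 FPKM, SD, n = 3 each, adjusted p = 0.149). TUBB2A went the other way, at 14.1, 14.9 and 14.6 FPKM in shCtr and 20.6, 28.4 and 17.8 FPKM in shZNF148. All depleted samples were above all controls, with shZNF148 replicate 2 far above the rest, and TUBB2A did not pass (0.56, SE 0.16, adjusted p = 0.0618). Without that replicate it did (0.38, adjusted p = 0.0380).

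**Figure D2:**
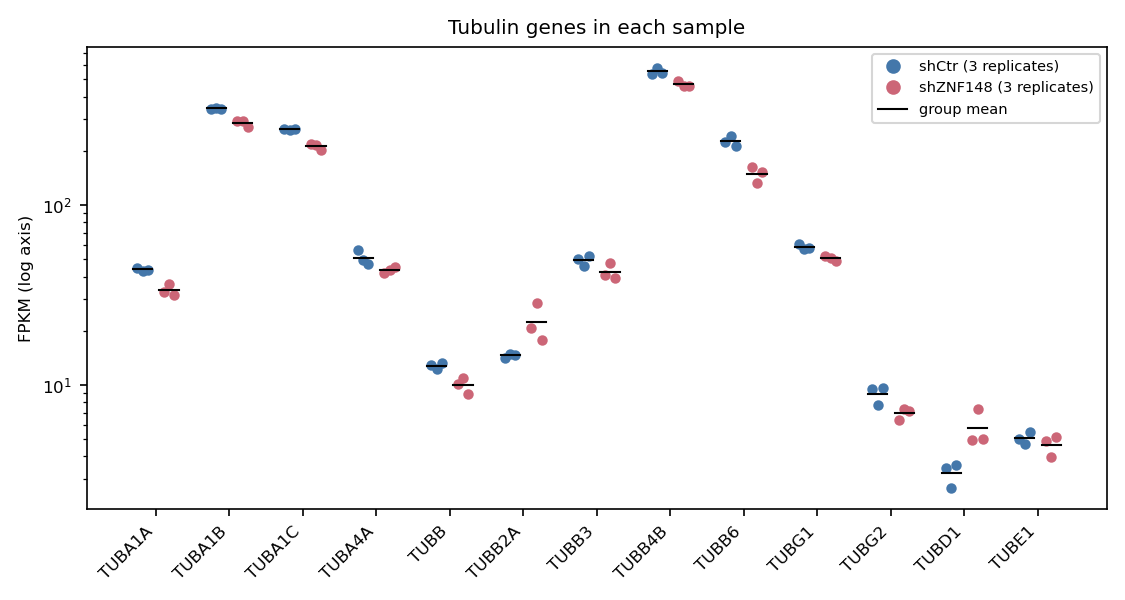
FPKM (log axis) of the alpha-, beta-, gamma-, delta- and epsilon-tubulin genes in each of the 3 shCtr and 3 shZNF148 samples, with a line at each group mean. TUBB6 falls from 227 to 149 FPKM on average, the TUBA1 genes are lower by smaller steps, and TUBB2A and TUBD1 are higher in every shZNF148 sample.

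Summed over all isotypes, alpha- and beta-tubulin came to 1552, 1599 and 1536 FPKM in shCtr and 1313, 1274 and 1228 FPKM in shZNF148. The depleted samples held 81.4% of the control sum, and the groups did not overlap. FPKM summed over all rows of the table were also lower, at 469594 to 488173 in shZNF148 against 497730 to 507312 in shCtr. Both subunits of the dimer were lower by a like amount: the alpha sum was 704 ± 6.72 against 578 ± 22.5 FPKM (82.1%), and the beta sum 859 ± 32.0 against 694 ± 26.4 FPKM (80.8%, SD, n = 3 each). The mix of alpha isotypes overlapped between the groups for all 4 tested genes. The shares of TUBA1A, TUBA1B and TUBA1C rest on how reads common to them were divided and are uncertain. Of the beta isotypes, TUBB and TUBB3 overlapped as well and the other 3 did not. TUBB6 made up 26.4 ± 0.837% of beta-tubulin FPKM in shCtr and 21.5 ± 1.67% in shZNF148, while TUBB4B made up 64.5 ± 0.384% and 67.6 ± 0.0249%. TUBB2A had 1.69 ± 0.0423% in shCtr and 3.21 ± 0.829% in shZNF148. The ratio of TUBB2A to TUBB6 was 0.0642 ± 0.00367 in shCtr and 0.152 ± 0.0528 in shZNF148 (p = 0.1 by an exact permutation test, two-sided, which with 3 against 3 samples can go no lower). Since TUBB2A was wholly higher and TUBB6 wholly lower, this p was fixed in advance and is no support.

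Tubulin isotypes differ most in the acidic tail at the end of the protein, where most of their modifications are placed. The last 60 coding bases, stop codon included, are shown for the 5 tested beta-tubulins because they encode this end. They are from GENCODE 44 on GRCh38, on the coding strand. Capitals mark bases that differ from TUBB4B at the same distance from the stop.
TUBB4B (chr9:137243497-137243556, plus strand): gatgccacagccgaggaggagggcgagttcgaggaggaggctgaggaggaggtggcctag
TUBB (chr6:30724338-30724397, plus strand): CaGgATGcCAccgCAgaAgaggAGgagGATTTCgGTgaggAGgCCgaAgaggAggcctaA
TUBB2A (chr6:3153863-3153922, minus strand): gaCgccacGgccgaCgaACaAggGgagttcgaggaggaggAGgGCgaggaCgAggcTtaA
TUBB3 (chr16:89935745-89935804, plus strand): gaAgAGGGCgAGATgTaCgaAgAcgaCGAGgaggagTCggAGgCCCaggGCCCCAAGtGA
TUBB6 (chr18:12326071-12326130, plus strand): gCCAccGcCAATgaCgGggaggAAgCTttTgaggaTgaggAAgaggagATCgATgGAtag

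Of these 60 bases, set against each other without gaps, TUBB2A differs from TUBB4B at 15, TUBB6 at 25, TUBB at 27 and TUBB3 at 35. The coding sequences differ in length, at 1338 bases for TUBB4B against 1335 for TUBB, 1341 for TUBB6 and 1353 for TUBB3. Capitals can therefore mark a shift of the same letters, and these counts do not measure which isotypes a read can tell apart. Over whole coding sequences, 58.4% of the 50-base stretches of TUBA1A, 68.3% of those of TUBA1B and 57.0% of those of TUBA1C also occur in another member. Their separate values therefore rest on how reads were shared among them, which is not given in the sources used here, and are uncertain. TUBB2A shares 72.4% of its stretches with TUBB2B, which was below the filter at 0.637 ± 0.293 against 0.600 ± 0.0601 FPKM. TUBB6, at 1.55%, is nearly distinct, and TUBB shares none with any other member. TUBA1A and TUBA1C also overlap on opposite strands of chromosome 12 in GENCODE, as do TUBA4A and TUBA4B on chromosome 2, and whether counting used strand is not stated. TUBB has 8 rows in the table, of which 7 were at 0 in all samples, so its value and its small share of beta-tubulin are uncertain. The beta-tubulin sum, the shares of the other beta isotypes and the rank of TUBB4B rest on that value and are uncertain too.

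Gamma-tubulin and its ring complex make the template from which a microtubule grows. TUBGCP2, a core subunit of the small complex, was 35.7, 34.9 and 35.2 FPKM in shCtr and 25.0, 26.2 and 23.9 FPKM in shZNF148. The replicates lay close together and far from the other group, and TUBGCP2 fell to 71.1% (-0.48, SE 0.06, adjusted p = 0.0118). TUBG1, the main gamma-tubulin, was 60.6, 57.1 and 57.5 FPKM against 52.0, 50.4 and 48.8 FPKM. TUBG1 was separate but did not pass (-0.21, adjusted p = 0.0602), nor did its near-copy TUBG2 (8.91 ± 1.04 against 6.94 ± 0.534 FPKM, SD, n = 3 each, adjusted p = 0.0919), with which it shares 34.7% of its 50-base stretches. Of the 7 genes of this group 1 fell (14.3%) and 0 rose, beside 8.13% and 5.46% of all rows. Below 0 were 6 of them (85.7%), beside 49.1% of all rows, and the median was -0.21. TUBGCP5 was the exception in sign, at 0.25 (adjusted p = 0.141).

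Delta- and epsilon-tubulin serve the centriole. TUBD1, delta-tubulin, was 3.42, 2.66 and 3.59 FPKM in shCtr and 4.90, 7.35 and 4.98 FPKM in shZNF148. The groups did not overlap, with shZNF148 replicate 2 the highest, and TUBD1 rose to 178% of the control mean (0.66, SE 0.17, adjusted p = 0.0472). Without that replicate the change was 0.50 and no longer passed (adjusted p = 0.0546). TUBE1, at 5.04 ± 0.393 against 4.64 ± 0.589 FPKM (SD, n = 3 each), overlapped (adjusted p = 0.558).

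Of the 28 tested kinesins 2 fell and 2 rose (7.14% each), beside 8.13% and 5.46% of all rows, and 24 did not pass. Their median was -0.01. Both that rose act in mitosis, and both that fell belong to the transport group, but the groups as wholes did not part. Below 0 were 7 of 12 mitotic kinesins (median -0.0081) and 6 of 11 transport kinesins (median -0.0028). KIF4A, a chromokinesin of the chromosome arms and the central spindle, was 25.8, 25.9 and 26.2 FPKM in shCtr and 33.9, 33.8 and 33.9 FPKM in shZNF148. The spread within each group was below 1 FPKM, and KIF4A rose to 130% (0.37, SE 0.05, adjusted p = 0.0159). KIF20A, which works at the midzone and in cytokinesis, was 56.2, 56.9 and 56.6 FPKM against 68.4, 76.6 and 67.9 FPKM. It rose to 125% without overlap (0.32, SE 0.07, adjusted p = 0.0309). KIF4B, an intronless copy of KIF4A with 13.5% of its 50-base stretches in common, was 5.45 ± 0.451 against 6.02 ± 0.244 FPKM (SD, n = 3 each, adjusted p = 0.358). The ratio of KIF4A to KIF4B was 4.79 ± 0.347 in shCtr and 5.63 ± 0.225 in shZNF148 (exact two-sided permutation test, p = 0.1).

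The other mitotic kinesins did not pass. KIF11, the bipolar motor that pushes spindle poles apart, was 52.2 ± 1.78 against 60.7 ± 4.19 FPKM (0.21, adjusted p = 0.0894), with every depleted sample above every control. KIF22, another chromokinesin, was 63.1 ± 3.71 against 53.4 ± 3.19 FPKM (-0.24, adjusted p = 0.0758), again without overlap but lower. KIF2C, which takes apart microtubule ends at the centromere and was the most abundant of the group, was 88.7, 89.0 and 86.9 FPKM in shCtr and 86.8, 90.6 and 85.7 FPKM in shZNF148. Its groups overlapped, and the difference was -0.01 with an SE of 0.05 (adjusted p = 0.926). In sum over the group, mitotic kinesins came to 467 ± 5.53 against 477 ± 12.9 FPKM (SD, n = 3 each). A list of 20 general mitosis and proliferation genes (MKI67, TOP2A, CDK1 and others), all tested, held 1 gene that fell, the checkpoint kinase BUB1 (107 ± 6.23 against 86.1 ± 5.58 FPKM, -0.32, adjusted p = 0.0405), and 0 that rose. That is 5% of the list, beside 13.6% of all rows that passed. At an unadjusted p under 0.05 in limma, 7 were lower and 1 higher, beside 2098 and 1883 of the 11777 tested rows. Without overlap were 7 lower and 2 higher (45%), beside 41.0% of all rows. Below 0 were 14 of the 20 (70%), beside 49.1% of all rows. The list summed to 1923 to 2009 FPKM in shCtr and 1791 to 1945 FPKM in shZNF148, with a median of -0.04. KIF23, of the central spindle, has a row that also names a neighbouring gene, PAQR5, and cannot be read alone. KIFC1 has 3 rows, of which 2 were at 0 in all samples and the third at 0.296 FPKM, so nothing can be said of it here.

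**Figure D3:**
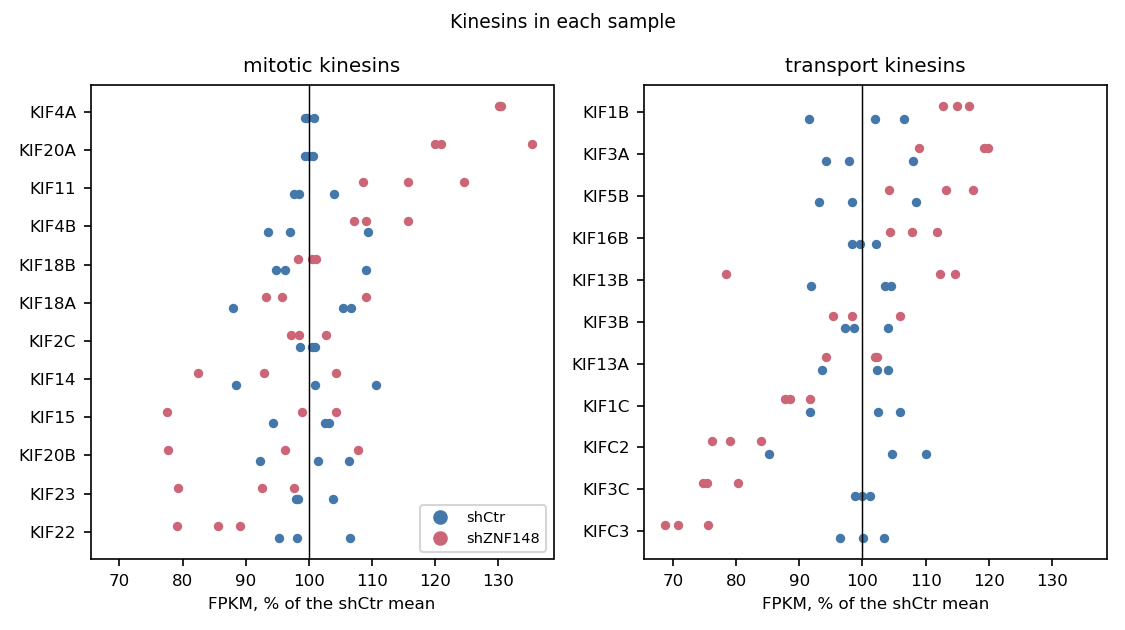
FPKM of each tested mitotic kinesin (left) and transport kinesin (right) in each sample, as a percentage of the gene's shCtr mean, with a line at 100%. KIF4A and KIF20A stand to the right with means of 130% and 125%, KIFC3 and KIF3C to the left at 71.7% and 76.8%, and most other kinesins scatter on both sides of the line.

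Among the transport kinesins, KIFC3, a minus-end motor known from epithelial cell junctions and the Golgi, was 63.8, 59.5 and 61.7 FPKM in shCtr and 46.5, 42.4 and 43.7 FPKM in shZNF148. All depleted samples were lower, and KIFC3 fell to 71.7% (-0.47, SE 0.06, adjusted p = 0.0130). KIF3C, a motor subunit of the kinesin-2 family, was 12.8, 13.0 and 13.1 FPKM against 10.4, 9.79 and 9.69 FPKM. It fell to 76.8% (-0.35, SE 0.07, adjusted p = 0.0257), whereas its relatives KIF3A (3.10 ± 0.221 against 3.60 ± 0.191 FPKM) and KIF3B (16.4 ± 0.592 against 16.4 ± 0.904 FPKM) did not pass. KIF5B, the ubiquitous conventional kinesin and the most abundant of the group over all 6 samples, though below KIFC3 in shCtr, was 57.0 ± 4.44 against 63.6 ± 3.87 FPKM (0.16, SE 0.08, adjusted p = 0.218, SD, n = 3 each). Over the 11 transport kinesins the median was -0.0028. None of the 5 remaining kinesins passed in limma (0 lower and 1 higher at an unadjusted p under 0.05), and the largest difference among them was that of KIF7, a regulator of Hedgehog signalling at the cilium tip (1.82 ± 0.401 against 2.46 ± 0.634 FPKM, 0.29, adjusted p = 0.290). KIF2A, a depolymerising kinesin, was their most abundant at 17.1 ± 1.16 against 14.4 ± 2.82 FPKM (-0.25, adjusted p = 0.260).

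Cytoplasmic dynein-1 is a large complex around a pair of DYNC1H1 heavy chains, and its light intermediate chains, DYNC1LI1 and DYNC1LI2, bind the adaptors that hold cargo. DYNC1LI1 was 20.7, 19.2 and 19.8 FPKM in shCtr and 12.4, 12.6 and 12.2 FPKM in shZNF148. The groups were far apart relative to their spread. DYNC1LI1 fell to 62.4% of the control mean (-0.64, SE 0.06, adjusted p = 0.00931, the smallest among the members). DYNC1LI2, the alternative chain, was 32.8, 32.1 and 32.7 FPKM against 36.8, 37.6 and 39.7 FPKM. It was higher in every depleted sample and just missed the threshold (0.22, SE 0.06, adjusted p = 0.0550). The ratio of DYNC1LI1 to DYNC1LI2 was 0.629, 0.599 and 0.606 in shCtr and 0.336, 0.336 and 0.308 in shZNF148 (exact two-sided permutation test, p = 0.1). As the chains had separated in opposite directions, this p was fixed in advance and adds no support. These genes share none of their 50-base coding stretches, so reads of that length tell them apart.

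The rest of dynein-1 overlapped or differed less. DYNC1H1 was 97.3, 100 and 95.1 FPKM in shCtr and 89.8, 78.3 and 91.5 FPKM in shZNF148. Its groups did not overlap, and it did not pass (-0.17, SE 0.08, adjusted p = 0.159). DYNC1I2, an intermediate chain that joins dynein to dynactin, was 21.9 ± 0.684 against 20.4 ± 1.81 FPKM (adjusted p = 0.412). None of the 5 tested light chains passed, also with 0 at an unadjusted p under 0.05, and all of them had differences above 0, with a median of 0.09. DYNLRB1, the roadblock chain and the most abundant single member, was 807, 846 and 830 FPKM in shCtr and 897, 1003 and 721 FPKM in shZNF148. Its depleted samples lay on both sides of the controls (adjusted p = 0.731). DYNLL2, an LC8 chain that also binds many partners outside dynein, was 38.3 ± 2.48 against 45.3 ± 8.62 FPKM (0.22, adjusted p = 0.285). Dynein-2, the motor that returns cargo from the tip of the cilium, had 0 of its 2 tested chains pass, with 0 at an unadjusted p under 0.05, and DYNC2LI1 was 5.11 ± 1.27 against 6.21 ± 1.88 FPKM (0.23, adjusted p = 0.498, SD, n = 3 each).

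Axonemal dynein heavy chains drive the beating of motile cilia, and 4 of the 13 DNAH genes passed the filter. DNAH5, an outer arm chain, met the filter only through the shCtr samples, so its count among the genes that fell is no support. It was 1.47, 1.52 and 1.37 FPKM in shCtr and 0.645, 0.601 and 0.780 FPKM in shZNF148. DNAH5 fell to 46.5% of the control mean (-0.55 on the FPKM + 1 scale, SE 0.12, adjusted p = 0.0355). DNAH14 was 7.97, 7.23 and 6.53 FPKM against 5.56, 4.04 and 4.60 FPKM, without overlap, and fell to 65.3% (-0.53, SE 0.13, adjusted p = 0.0408). DNAH2, an inner arm chain and the most abundant of them, was 9.68, 8.72 and 9.13 FPKM against 9.78, 8.67 and 8.70 FPKM and overlapped (-0.02, adjusted p = 0.893). Ciliated cells were not visible in these samples: of 9 marker genes none passed the filter, and they summed to 0.684 to 1.27 FPKM in shCtr and 0.812 to 1.00 FPKM in shZNF148. Of their defining genes, FOXJ1 was at 0 in 5 of the 6 samples and DNAI2 in all 6. The highest of the 9 was CCDC40, at 0.281 to 0.568 FPKM, and CCDC39 was also above 0 in all 6 samples.

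The 3 end-binding proteins, which ride on growing plus ends and recruit other proteins there, all passed, in both directions, beside 13.6% of all rows. MAPRE1 (EB1) was 91.0, 104.6 and 97.5 FPKM in shCtr and 71.4, 63.4 and 79.0 FPKM in shZNF148. It fell to 72.9% without overlap (-0.45, SE 0.10, adjusted p = 0.0324). MAPRE3 (EB3) was 12.0, 12.3 and 12.4 FPKM against 7.93, 6.45 and 7.05 FPKM. Every depleted sample was far below the controls, and MAPRE3 fell to 58.4% (-0.70, SE 0.09, adjusted p = 0.0111), the largest fall of all members on this scale. MAPRE2 (EB2) was 7.39, 6.87 and 8.02 FPKM in shCtr and 11.0, 16.2 and 11.1 FPKM in shZNF148. MAPRE2 rose to 172% (0.69, SE 0.15, adjusted p = 0.0356), with shZNF148 replicate 2 again the highest sample, and passed without that replicate too (0.52, adjusted p = 0.0214). The ratio of MAPRE2 to MAPRE3 was 0.615, 0.559 and 0.647 in shCtr and 1.39, 2.51 and 1.57 in shZNF148, so that the order of these 2 genes turned (exact two-sided permutation test, p = 0.1). Here too the p was fixed in advance, since both genes had separated in opposite directions. MAPRE1 stayed the most abundant of the 3 in every sample.

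**Figure D4:**
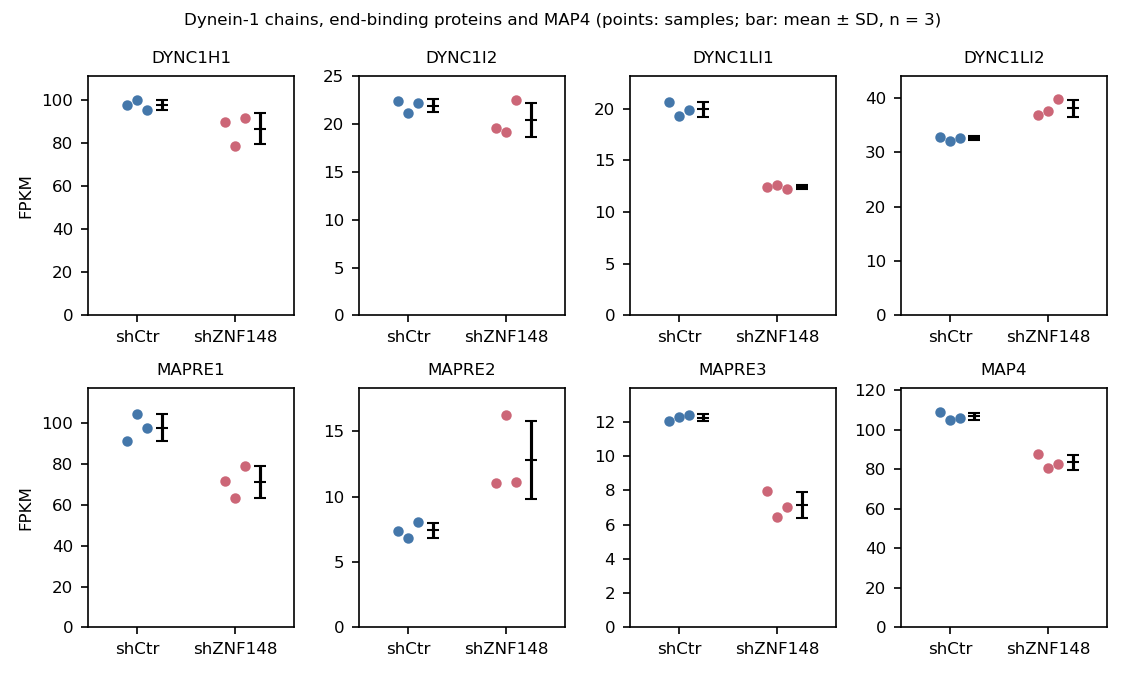
FPKM (axes from 0) of cytoplasmic dynein-1 chains, end-binding proteins and MAP4 in each sample, with mean ± SD (n = 3) beside the points. DYNC1LI1 is lower (19.9 against 12.4 FPKM) while DYNC1LI2 is higher (32.6 against 38.1 FPKM), and MAPRE1 and MAPRE3 are lower while MAPRE2 is higher.

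Of the 4 microtubule-associated proteins, MAP4 and MAP1B were tested and both fell, beside 8.13% of all rows. MAP4, the main such protein outside neurons, which stabilises the lattice, was 109, 105 and 106 FPKM in shCtr and 87.9, 80.5 and 82.6 FPKM in shZNF148. It was lower in every depleted sample, at 78.4% (-0.35, SE 0.06, adjusted p = 0.0201). MAP1B, best known from growing axons, was 26.0, 31.0 and 28.7 FPKM against 21.9, 16.0 and 20.8 FPKM and fell to 68.5% (-0.53, SE 0.13, adjusted p = 0.0428). MAP1A and MAP2, both mainly neuronal, were at means of 0.112 and 0.133 FPKM and were not tested. Stathmins bind free dimers and promote the shrinking of microtubules. STMN3, a neuronal form, was 5.34, 5.87 and 6.43 FPKM in shCtr and 7.54, 8.61 and 8.86 FPKM in shZNF148, and rose to 142% without overlap (0.44, SE 0.10, adjusted p = 0.0368). STMN1, the common and far more abundant form, was 519, 511 and 545 FPKM against 458, 526 and 512 FPKM, overlapped and did not pass (-0.08, SE 0.07, adjusted p = 0.495). Its row also carries a microRNA gene inside it, MIR3917.

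Of the 49 rows below the filter, 18 were at 0 in all samples and 31 had means of up to 0.875 FPKM. TUBB4A, the class IV beta-tubulin of the brain, was 0.807, 0.543 and 0.972 FPKM in shCtr and 0.191, 0.144 and 0.134 FPKM in shZNF148. The groups did not overlap, and in a fit with no filter TUBB4A was the only 1 of the 31 to pass (-0.61, adjusted p = 0.0270). KIF21B, a neuronal kinesin, was 0.488 ± 0.0492 against 0.171 ± 0.113 FPKM and did not pass in that fit (adjusted p = 0.0539). Groups of KIF12 (lower) and TUBA8 (higher) did not overlap either, and neither passed in that fit. Neuronal and testis forms such as KIF1A, TUBA3C and STMN2 were listed at 0 throughout.

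Genes that act on microtubules but fall outside the symbol rule were read from lists of the pathway. Of the 6 tubulin folding cofactors, 1 fell, TBCD, which helps to assemble the dimer (20.9, 20.8 and 21.0 FPKM against 16.0, 12.2 and 14.6 FPKM, -0.53, adjusted p = 0.0255), and the list median was 0.12. The 8 subunits of the chaperonin CCT, which folds new tubulin, held 0 that passed in limma (1 lower at an unadjusted p under 0.05), with differences from -0.19 to 0.09. Among 14 tested tubulin modifying enzymes 2 fell and 1 rose. TTLL11, a polyglutamylase, was 5.44, 5.72 and 6.02 FPKM in shCtr and 2.77, 2.32 and 2.86 FPKM in shZNF148. It fell (log2 fold change -0.88, adjusted p = 0.0103), the only gene of these lists to pass with a change of more than 1.5-fold. TTLL12 fell (-0.46) and SIRT2, a tubulin deacetylase, rose (0.32).

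Of 20 further plus-end and lattice proteins 2 fell, the linker DST (66.0 ± 2.06 against 52.0 ± 4.76 FPKM) and MAP7D3, of the MAP7 family that recruits kinesin (34.6 ± 0.901 against 26.0 ± 2.13 FPKM), and 0 rose. The 6 severing enzymes held 0 that passed (1 lower at an unadjusted p under 0.05). Dynactin and the dynein adaptors, partners of the light intermediate chains above, had 1 of 21 lower and 1 higher. CAPZB, which caps the actin-like filament of dynactin and actin itself, fell (124 ± 3.96 against 96.2 ± 6.23 FPKM), and DCTN5, a subunit of its pointed end, rose (8.85 ± 0.134 against 11.7 ± 0.724 FPKM, SD, n = 3 each). Of 12 kinesin light chains and adaptors 1 rose, KLC1, a cargo-binding light chain of conventional kinesin (48.7 ± 3.06 against 61.2 ± 2.96 FPKM, 0.32, adjusted p = 0.0349), and 0 fell. The shares that passed in these lists are to be read beside the 13.6% of all rows.

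ZNF148 binds runs of C or G, so promoters of members were searched for the letters CCCTCCCC on either strand, in 250 bases before and 50 after the RefSeq start (GRCh38.p14). The letters were in 12.8% of all 27305 promoters, and in 13 of the 62 tested members that had a promoter (21.0%). They were in 2 of 13 members that fell, 2 of 5 that rose and 9 of 44 that did not pass. Promoters of members were richer in G and C, with a median of 66.2% against 58.3% for all promoters. Matches are descriptions and not binding sites. Windows of 40 bases around the match, shown to give the setting of the letters in members that passed, have the match in capitals on the strand of the gene, and TUBA1B holds it on the opposite strand.
TUBA1B (chr12:49131533-49131572, minus strand): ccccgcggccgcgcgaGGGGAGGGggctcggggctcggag
MAP4 (chr3:48088987-48089026, minus strand): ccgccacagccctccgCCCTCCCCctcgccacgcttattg
KIF4A (chrX:70289958-70289997, plus strand): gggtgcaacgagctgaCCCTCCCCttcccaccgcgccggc

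The first base of the match lies 161 bases before the RefSeq start of TUBA1B, 162 before that of MAP4 and 130 before that of KIF4A. In GENCODE the MAP4 gene reaches chr3:48089272, so its window lies within the gene there. TUBA1B and MAP4 fell and KIF4A rose, so the letters were present in promoters of genes of both directions. STMN3, which rose, holds a match 10 bases before its start. The promoters of TUBB6, TUBGCP2, TUBD1 and MAPRE1 do not hold these letters within the window searched. Only the first listed start of each gene was searched, so any other start was left out.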

How the data were processed

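Samples were grouped by their labels as 3 shCtr and 3 shZNF148. Expression was deposited by the authors as FPKM, in 1 table with 1 column per sample and 0 sample columns unused. The submitters' processing notes name bcl2fastq 2.17.1.14, TopHat2 2.0.14, Cufflinks 2.2.1 and Cuffnorm 2.2.1 and the builds hg18 and hg19, without saying which step each served, while the paper's methods name Salmon on GRCh38 and DESeq2. How reads that match several isotypes were shared is not given in the sources used here. The table holds no counts, so DESeq2 was not run, depth in reads is unknown and no counting interval is given.

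Of 24108 rows, the 11777 that averaged 1 FPKM or more entered a limma 3.58.1 fit of log2(FPKM + 1) in R 4.3.3. Condition was the only term and a mean-variance trend was used. Benjamini-Hochberg adjustment ran over all tested rows. Tests were two-sided. The script was tested on simulated data. Tables and plots were made with Python 3.11.15, numpy 2.4.6, pandas 2.3.3 and matplotlib 3.10.9. Single ratios were compared by an exact permutation test, for pairs that were not part of the planned tests.

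Members and gene lists were chosen with earlier results of these data known. Members named with values were those past adjusted p under 0.05 and 1.5-fold, in each role the most abundant and the most changed, and all tested alpha-, beta- and gamma-tubulins, dynein-1 chains, stathmins, end-binding proteins and listed microtubule-associated proteins. KIF20A, KIF3C and DNAH14 met none of these rules and were named because they passed. KIF4B, KIF11, KIF22, KIF3A, KIF3B, TUBGCP5, genes below the filter and genes of the pathway lists within 1.5-fold were named after their values were seen. Where a gene had several rows, that with the highest mean was used. Coordinates and coding sequences are from GENCODE 44 (GRCh38) and promoters from RefSeq (GRCh38.p14), matched by symbol. The deposited table has no coordinates. Alternatives were other pseudocounts (0.1 and 5 FPKM), filters, scalings and variance models, adding rows of a symbol, leaving out rows at 0, the replicate number as a block, and leaving out each sample. Coding ends of alpha-tubulins are not reported here.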

Additional observations from a re-analysis of the deposited data

How the results depend on the processing

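Counts of members lower and higher (14 and 5) and of all rows lower and higher (957 and 643) stayed within 1.5 times under both pseudocounts, the filter at a mean of 5 FPKM, both scalings, no mean-variance trend, adding rows of a symbol and leaving out rows at 0. With no filter on low values 2 members and 401 rows were higher. With the replicate block the counts were 4 and 0 members and 271 and 130 rows. The 4 were DYNC1LI1, KIFC3, MAPRE3 and TUBGCP2. Replicate numbers are not said to mark shared cultures, and same-numbered samples did not deviate together (correlations of 0.0010, -0.088 and 0.030), so the samples were not paired. The row of ERBB2 and MIR4728, at 126 and 125 FPKM in the samples numbered 2 and 20.1 to 24.8 FPKM in the other 4, did deviate by number. Leaving out 1 sample at a time gave 0 to 15 members lower, 0 to 4 higher, 19 to 1092 rows lower and 3 to 628 higher. The cause was not tested, beyond that these fits have fewer samples. Quantile normalization lowered the share of all passing rows that fell from 59.8% to 54.1%. Over all alternatives, the log2 fold change ranged from -0.27 to -0.14 for TUBB4B and from -0.33 to -0.20 for TUBA1C. That of TUBB6 ranged from -0.67 to -0.52. The largest adjusted p of TUBB4B in limma was 0.256, with quantile normalization.

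Signs were followed for medians and for members named by rule or because they passed, and turned only for those near 0. Signs of the other tested members were not followed. With quantile normalization KIF2C was 0.069 and STMN1 0.032. Over the fits that leave out 1 sample, the log2 fold change ranged from -0.032 to 0.0078 for KIF2C, from -0.070 to 0.016 for DNAH2 and from -0.040 to 0.198 for DYNLRB1. The median ranged from -0.044 to 0.028 for transport kinesins, from -0.057 to 0.025 for mitotic kinesins and from -0.087 to 0.166 for other kinesins. The unknown read number limits what low values can show.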
